A study of Mus musculus with 2 samples.

Results

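Small nucleolar RNAs (snoRNAs) and small Cajal body RNAs (scaRNAs) were examined in the nuclear RNA of mouse macrophages. The genes were chosen by their annotation and by the counts themselves: a gene with a transcript typed snoRNA or scaRNA was a member if its expected count, averaged over both libraries, was 10 or more. Of 1558 genes with such a transcript, among 55536 mouse genes in all, 35 were members. Because counts chose the members, their levels are given as a description and carry no test.

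The libraries hold total RNA without ribosomal RNA, taken from nuclei of C57BL/6J bone-marrow-derived macrophages, which are primary cells grown from marrow. The cells received Lipid A, the part of bacterial lipopolysaccharide that TLR4 recognises, at 100 ng/ml over 12 h. They were then kept without it over 12 h after washing, and met 100 ng/ml Lipid A again, this time over 120 min. This was the 1 group of the study, with 2 biological replicates, and both carry 1 donor label. No unstimulated or once-stimulated cells were analysed here, so nothing below compares treatments. The fraction is named nuclear in one label and nucleoplasmic in another, and age and sex were not recorded. Replicate 1 started from 1 µg of RNA and replicate 2 from 500 ng, so input amount and replicate cannot be told apart. Nothing in the labels says that the replicates came from separate animals, so p-values below measure only how these samples differ, part of which may be technical.

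SnoRNAs pair with other RNAs and lead enzymes to single bases. Box C/D snoRNAs carry a C box and a D box and guide ribose methylation, and box H/ACA snoRNAs carry a hinge box and a terminal ACA and guide the change of uridine to pseudouridine. Most targets lie in ribosomal RNA, while scaRNAs reside in Cajal bodies and guide the same changes in spliceosomal RNAs. A few snoRNAs, among them U3, U17 and U22, are instead needed for cleavage of the ribosomal RNA precursor. In mammals most are cut out of introns of host genes, so that one transcript can yield both a spliced RNA and a snoRNA.

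The sequences of the members on which the results turn are shown first, as GENCODE release M21 gives them (mm10). Positions are counted from 1 at the 5′ end. The most abundant member, Gm22009 (chromosome 3, minus strand, 343 nt, typed scaRNA, in an intron of Kpna4), had a C box at position 7 and a D box at position 335. Its first 300 bases lie at chr3:69085148-69085447 and hold 13 consecutive GT units from position 131 to 156. Gm25395 (272 nt) and Scarna6 (265 nt) lie in introns of the same gene, Atg16l1, on the plus strand of chromosome 1, and matched each other in 62.6% of aligned positions. Gm25395 lies at chr1:87776938-87777209 and Scarna6 at chr1:87784556-87784820. Capitals mark the C box TGATGA and the last D box CTGA, which in Gm22009 lies beyond the stretch shown.
Gm22009: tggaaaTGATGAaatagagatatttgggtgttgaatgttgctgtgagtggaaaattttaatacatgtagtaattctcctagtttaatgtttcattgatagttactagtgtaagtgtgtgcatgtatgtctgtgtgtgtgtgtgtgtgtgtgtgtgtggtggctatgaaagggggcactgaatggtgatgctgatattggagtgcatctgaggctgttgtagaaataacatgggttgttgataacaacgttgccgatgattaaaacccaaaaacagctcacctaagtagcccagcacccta
Gm25395: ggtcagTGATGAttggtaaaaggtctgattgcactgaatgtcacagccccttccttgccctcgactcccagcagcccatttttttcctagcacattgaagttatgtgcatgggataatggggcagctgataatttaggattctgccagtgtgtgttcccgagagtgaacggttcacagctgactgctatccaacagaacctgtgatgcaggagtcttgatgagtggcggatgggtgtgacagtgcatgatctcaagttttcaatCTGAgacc
Scarna6: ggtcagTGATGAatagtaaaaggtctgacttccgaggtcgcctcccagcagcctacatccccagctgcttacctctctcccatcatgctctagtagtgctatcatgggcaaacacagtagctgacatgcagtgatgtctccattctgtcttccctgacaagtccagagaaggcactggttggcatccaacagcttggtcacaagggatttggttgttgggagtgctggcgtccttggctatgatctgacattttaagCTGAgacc

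Snora73a and Snora73b (both 205 nt, chromosome 4, minus strand) are the mouse genes of U17. They differed at 7 of 205 aligned positions. Gm26448 (203 nt, chromosome 9, plus strand, in an intron of Rpsa) matched Snora73a in 88.3% and Snora73b in 87.8% of aligned positions. Gm22988 (in Eif4a1) and Gm25291 (in Sec24a), both 144 nt and on the minus strand of chromosome 11, differed at 4 of 144. Snora73a lies at chr4:132352775-132352979, Snora73b at chr4:132352322-132352526, Gm26448 at chr9:120129351-120129553, Gm22988 at chr11:69669635-69669778 and Gm25291 at chr11:51737779-51737922. These 5 are shown because reads can match more than one gene of the same family. Capitals mark the ACA that is followed by 3 bases at the 3′ end.
Snora73a: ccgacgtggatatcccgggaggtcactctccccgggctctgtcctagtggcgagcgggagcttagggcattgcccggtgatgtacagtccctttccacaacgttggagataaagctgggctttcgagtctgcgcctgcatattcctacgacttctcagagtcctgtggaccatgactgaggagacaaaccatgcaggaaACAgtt
Snora73b: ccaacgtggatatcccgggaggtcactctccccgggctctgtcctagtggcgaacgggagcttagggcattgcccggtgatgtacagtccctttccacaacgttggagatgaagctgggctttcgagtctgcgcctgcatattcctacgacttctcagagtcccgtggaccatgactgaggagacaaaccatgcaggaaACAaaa
Gm26448: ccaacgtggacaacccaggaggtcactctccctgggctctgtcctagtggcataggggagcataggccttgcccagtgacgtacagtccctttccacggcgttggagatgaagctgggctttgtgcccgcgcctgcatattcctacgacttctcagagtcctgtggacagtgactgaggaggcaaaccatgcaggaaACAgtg
Gm22988: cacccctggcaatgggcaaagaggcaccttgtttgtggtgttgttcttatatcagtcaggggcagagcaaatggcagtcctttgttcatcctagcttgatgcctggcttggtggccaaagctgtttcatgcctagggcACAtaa
Gm25291: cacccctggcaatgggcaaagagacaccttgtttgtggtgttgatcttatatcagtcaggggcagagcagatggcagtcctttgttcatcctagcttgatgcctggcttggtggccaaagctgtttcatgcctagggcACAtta

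The U3 genes Rnu3b1 to Rnu3b4 lie at 4 places between 87443237 and 87471583 on the plus strand of chromosome 11, in introns of Tex14. Each place carries one annotated gene of 215 nt and one of 216 nt that share their start, and all 8 entries had the sequence of Rnu3b1 at their length. Rnu3a (213 nt, chromosome 10, plus strand) matched Rnu3b1 in 85.2% of aligned positions. In both, the C box lay inside the RNA (positions 157 and 156), where U3 is known to carry it, and the D box lay near the 3′ end. The box C/D snoRNAs Snord22, Snord15a and Snord15b follow, of which Snord22 held no TGATGA. Rnu3b1 lies at chr11:87443237-87443452, Rnu3a at chr10:40258467-40258679, Snord22 at chr19:8725866-8725991 on the plus strand, and on the minus strand Snord15a at chr7:99482785-99482932 and Snord15b at chr7:99479563-99479707. Capitals mark C and D boxes.
Rnu3b1: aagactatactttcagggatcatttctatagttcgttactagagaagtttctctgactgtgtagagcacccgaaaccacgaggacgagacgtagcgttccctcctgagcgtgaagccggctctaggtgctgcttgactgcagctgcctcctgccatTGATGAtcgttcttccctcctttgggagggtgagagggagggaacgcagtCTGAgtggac
Rnu3a: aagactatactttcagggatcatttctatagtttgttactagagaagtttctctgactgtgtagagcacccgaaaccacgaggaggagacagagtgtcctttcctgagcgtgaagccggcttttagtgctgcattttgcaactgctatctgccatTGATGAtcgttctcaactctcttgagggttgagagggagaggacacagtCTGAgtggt
Snord22: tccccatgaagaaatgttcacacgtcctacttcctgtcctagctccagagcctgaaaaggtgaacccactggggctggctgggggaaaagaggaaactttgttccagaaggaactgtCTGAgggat
Snord15a: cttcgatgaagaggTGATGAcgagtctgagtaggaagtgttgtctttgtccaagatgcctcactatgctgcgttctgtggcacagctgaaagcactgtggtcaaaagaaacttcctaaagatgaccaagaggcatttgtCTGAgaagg
Snord15b: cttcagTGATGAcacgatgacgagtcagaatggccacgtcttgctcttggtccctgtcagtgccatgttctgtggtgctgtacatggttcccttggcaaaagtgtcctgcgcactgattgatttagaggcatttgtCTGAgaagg

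Boxes were searched on the transcript strand as TGATGA within the first 25 bases, CTGA within the last 25, and ACA followed by exactly 3 bases at the 3′ end. Both a C and a D box were found in 10 members, and the terminal ACA in 10 others, of which Gm25776 also held CTGA in its last 25 bases. A further 10 members, the 9 U3 entries and Scarna2, held CTGA near the end with TGATGA inside the RNA. Snord22 held CTGA alone, and Gm23262, Snora74a, Gm26447 and Gm24119 held none of these letters in these windows. Among the 824 genes of the same types and of the members' length range that stayed below the threshold, 2 (0.243%) held both C and D boxes and 228 (27.7%) held the ACA. Among 15332 transcripts of other types in that length range, the shares were 0.189% and 1.59%. Of the 12 snoRNA or scaRNA genes of 126 to 414 nt with both C and D boxes, 10 were members, against 10 of 237 with the ACA and without both of these boxes. At 126 to 149 nt, 4 of 6 genes with C and D boxes were members, against 4 of 215 with the ACA. Most genes of this range were closed to counting in replicate 1. Of 794, only 129 had an effective length (the length left for fragments to start in) above 0 there, and 447 in replicate 2. Boxes were not split by effective length, so whether box and detection are linked at these lengths was not tested. At 150 nt or more, 6 of 6 with C and D boxes were members, against 6 of 22 with the ACA.

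The libraries held 28450309 expected counts on mouse genes in replicate 1 and 16940220 in replicate 2. All 8 macrophage markers were above 1 TPM (transcripts scaled to 1e6 per library) in both libraries, at 42.2 to 1300.2 TPM in replicate 1 and 39.2 to 1229 TPM in replicate 2. Of the 20 markers listed for T cells, B cells, neutrophils, fibroblasts, endothelial and erythroid cells, Cd4 alone was above 1 TPM in both libraries (13.9 and 13.4), and Cd4 is also known from macrophages. All 8 macrophage markers were higher in replicate 1, against 30.2% of all tested genes. Their median log2 ratio was 0.73, from 0.16 (Adgre1) to 0.97 (Csf1r), on counts scaled by TMM. That scaling assumes that most genes are at equal levels between libraries. How clean the nuclei were is not known from the labels. The 37 mitochondrial genes took 4.15% of counts in replicate 1 and 10.3% in replicate 2, and the part of either set in the differences between the libraries was not tested.

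The members together took 0.165% of gene counts in replicate 1, with a 95% Wilson interval of 0.163 to 0.166%, and 0.136% in replicate 2, with 0.135 to 0.138%. These intervals cover counting error only. Gm22009 alone supplied most of it: the other 34 members held 43.1% of the member counts in replicate 1 and 21.4% in replicate 2. Scaled to all genes, those 34 took 0.0710% in replicate 1 and 0.0292% in replicate 2. The 34 thus took the larger share in replicate 1, while Gm22009 was close between the libraries.

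**Figure D1:**
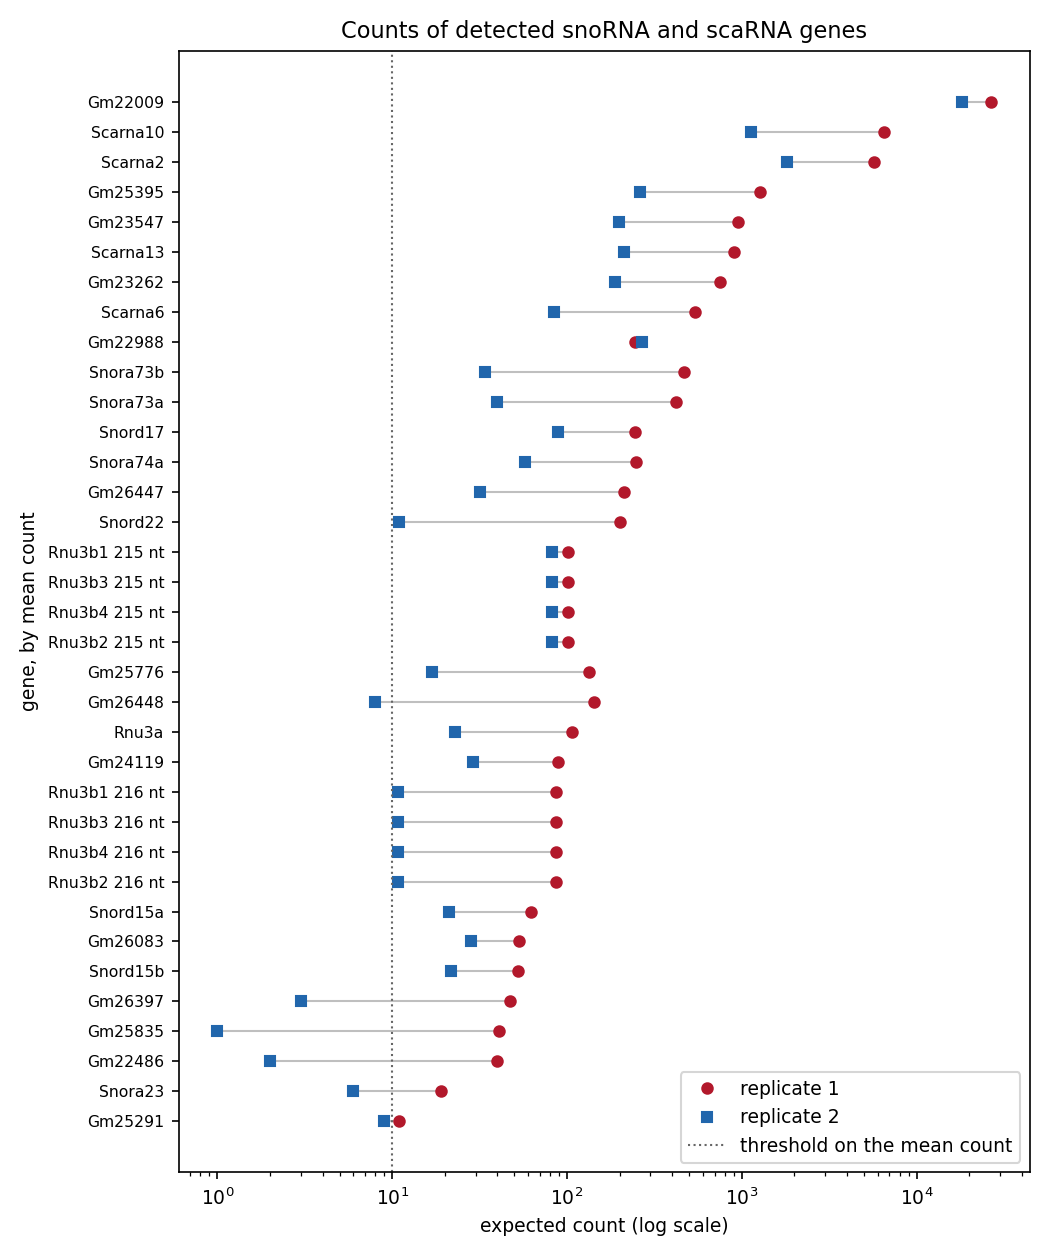
Expected counts of the 35 members in replicate 1 (circles) and replicate 2 (squares) on a log axis, ordered by mean count; the dotted line marks a count of 10. Gm22009 stands above all others at 26681 and 18155 counts, and for most genes the circle lies well to the right of the square.

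By symbol the members fell into unequal classes. There were 4 Snord genes of 98 annotated (Snord17, Snord22, Snord15a, Snord15b), 4 Snora genes of 42 (Snora73a, Snora73b, Snora74a, Snora23) and 4 Scarna genes of 9 (Scarna2, Scarna6, Scarna10, Scarna13). The other 23 had neither name: 9 were U3 entries and 14 carried Gm symbols, which name a gene model and no function. By annotated type, 29 members were snoRNA and 6 were scaRNA. The type and the symbol disagreed for Scarna10, which is typed snoRNA. Gm22009, Gm25395 and Gm26083 carried the scaRNA type without a Scarna name.

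The scaRNA-named genes together had the highest counts of the named classes, at 13640 in replicate 1 and 3233 in replicate 2. Their median length was also the largest, at 300 nt against 200.5 nt for Snora and 146.5 nt for Snord members. Singly this did not always hold: in replicate 2, Scarna6 (84) was below Snord17 (89). Scarna10 had 6489.9 counts in replicate 1 and 1129 in replicate 2. It is known from human cells to guide both kinds of change in a spliceosomal RNA. Scarna2, whose human counterpart guides methylation of U2, had 5706 counts in replicate 1 and 1808 in replicate 2. Scarna13, a tandem H/ACA RNA in humans, had 905 and 212 counts in replicates 1 and 2. Scarna6, which in humans joins a C/D and an H/ACA domain, had 539 and 84. In all 4 the count of replicate 1 was at least 3 times that of replicate 2, more than the difference in depth.

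Among the Gm genes with the scaRNA type, Gm22009 had 26681 counts in replicate 1 and 18155 in replicate 2, the highest of all members in each. Gm25395 had 1271 and 263, and Gm26083, which overlaps an exon of the non-coding host Snhg20, had 53.5 and 28.1. Gm22009 was above Scarna10, the next in the order, in each library.

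Among the box H/ACA genes, Snora73b had 469.8 counts in replicate 1 and 33.8 in replicate 2. Snora73a had 419 and 39.8, and their near copy Gm26448 had 142 and 8. All 3 were low in replicate 2. Snora74a had 247 counts in replicate 1 and 57.6 in replicate 2, and Snora23 had 19 and 6. Because Snora73a shared 48.6% and Snora73b 45.1% of its 31-base words with genes elsewhere, the division of reads within this family is uncertain.

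Among the box C/D genes, Snord17 had 245 counts in replicate 1 and 89 in replicate 2. Snord22, the U22 RNA of ribosomal RNA cleavage, had 202 and 10.9. Snord15a had 62 and 21, and Snord15b 52.8 and 21.7. The Snord15 genes lie in introns of Rps3, a protein of the small ribosomal subunit. Every base word of Snord15b and Snord22 also occurs in an exon of a longer host transcript, so reads of host and snoRNA there could not be told apart with certainty.

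The 8 Rnu3b entries summed to 752 counts in replicate 1 and 372 in replicate 2. The 4 entries of 215 nt held 101 counts each in replicate 1 and 82.2 each in replicate 2, and the 4 of 216 nt held 86.8 and 10.8 each. Copies with the same sequence were given equal counts. The deposited credibility interval of Rnu3b1 at 215 nt reached from 0.000512 to 292 TPM in replicate 1, and from 0.000510 to 271 TPM in replicate 2. Only the sum over copies is therefore a usable level of U3. Rnu3a stood at 3.76 CPM (counts scaled to 1e6 per library) in replicate 1 and 1.36 CPM in replicate 2.

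The remaining Gm genes with the snoRNA type covered a wide range. Gm23547, in Phb2, had 947 counts in replicate 1 and 198 in replicate 2. Gm23262, in Eif4g2, had 752 and 187, and Gm22988, in Eif4a1, had 244 and 269. Gm22988 was the 1 member with more counts in replicate 2. Gm26447 (in Eif4a2), Gm25776 (in Gtf2a1) and Gm24119 (in Slc25a3) had 212, 133 and 89 counts in replicate 1, and 31.9, 17 and 29 in replicate 2. Gm26397, Gm22486 and Gm25835 had 40 to 47 counts in replicate 1 and 1 to 3 in replicate 2.

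At the threshold, the members with the lowest mean counts were Gm22486 (21), Snora23 (12.5) and Gm25291 (10). The genes just below it were Gm25117 (7.5), Gm22442 (7) and Gm24727 (7). Of the 35 members, 29 reached 10 counts in each library and 6 reached it in replicate 1 alone. Of the 1523 genes of these types below the threshold, 1470 had no count in either library. Where the gene tables could assign reads to a gene, a count of 0 allows up to 3 counts, or 0.105 CPM in replicate 1 and 0.177 CPM in replicate 2. No such limit holds for genes with an effective length of 0, the length left for fragments to start in, and these were 1364 of the 1558 genes in replicate 1 and 1046 in replicate 2.

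Members were longer than the other genes of their types. Their annotated length ran from 126 to 414 nt with a median of 213, against 35 to 381 nt with a median of 127 below the threshold. No gene under 126 nt was a member, of 699 annotated. From 126 to 149 nt, 10 of 794 were members (1.26%), and from 150 to 199 nt, 4 of 26 (15.4%). From 200 to 249 nt, 14 of 28 were members, and from 250 nt upward 7 of 11 (63.6%). Over the 27 members other than Rnu3b, length and mean count had a Spearman rho of 0.695, given as a description: these genes share their libraries, and the estimate of counts itself depends on length.

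The library and the counting method also depend on length. The labels give a size range of 250 to 400, and the deposited effective lengths correspond to fragments of about 237 nt in replicate 1, against 218 nt for replicate 2. The gene tables set the effective length to 0 for every snoRNA or scaRNA gene of 136 nt or less in replicate 1 and of 131 nt or less in replicate 2. That left 194 and 512 of the 1558 genes with an effective length above 0 in replicates 1 and 2. Low abundance of short snoRNAs and loss through fragment length or counting cannot be told apart here.

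**Figure D2:**
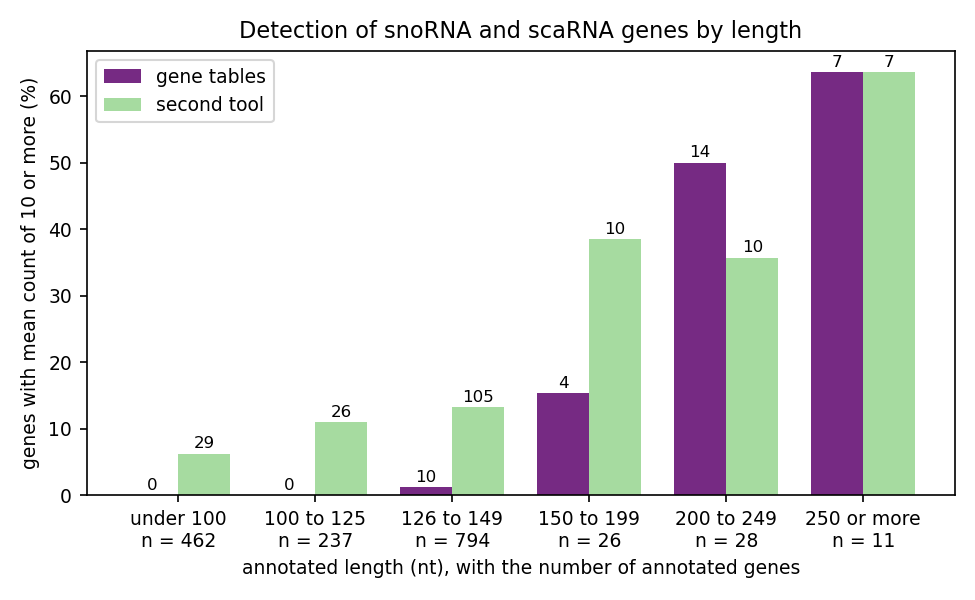
Percent of annotated snoRNA and scaRNA genes whose mean count reached 10, by annotated length, in the gene tables and in the second tool; numbers over the bars are gene counts. The gene tables show 0 genes under 126 nt, where the second tool shows 29 and 26.

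The deposited TPM of short members rests on effective lengths of a few bases. Gm22988 had 3063 TPM in replicate 1 and 5677 in replicate 2 from 244 and 269 counts, at effective lengths of 1.62 and 2.26 nt. Gm22009, with 26681 and 18155 counts, had 4791 and 6762 TPM at effective lengths of 112.9 and 127.9 nt. Gm26447 and Snord22 were both listed at 0 TPM in both libraries, although they had counts, at an effective length of 0. The median TPM of members was 183 in replicate 1 and 122 in replicate 2 (mean 153 ± 43.7, SD, n = 2). All TPM also depend on Rn7sk, a short nuclear RNA that held 345568 TPM in replicate 1 and 254544 in replicate 2.

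**Figure D3:**
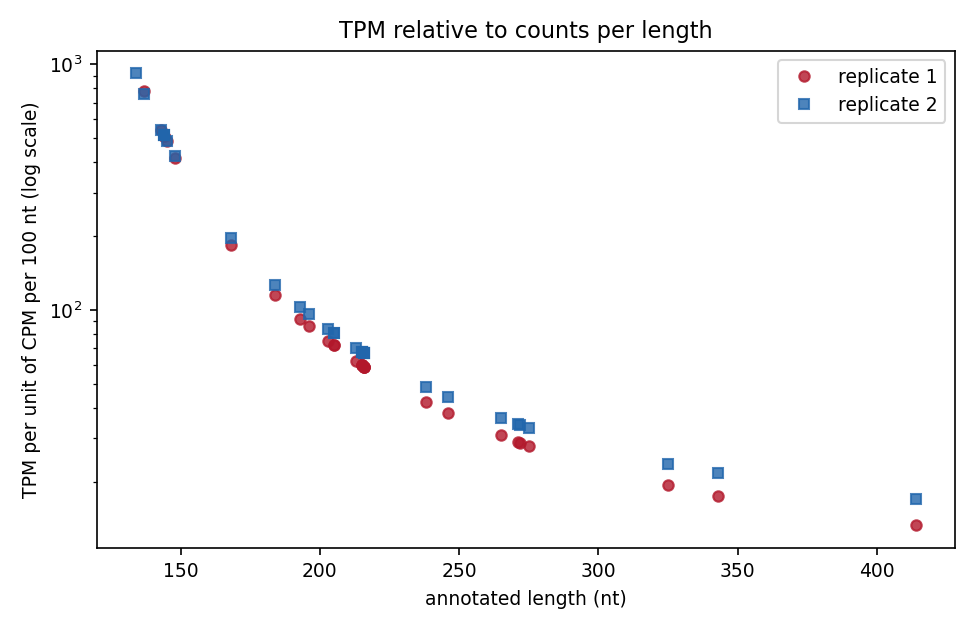
Deposited TPM divided by CPM per 100 nt of annotated length, on a log axis, against annotated length, for members with TPM above 0 in replicate 1 (circles) and replicate 2 (squares). The quotient is 13.3 and 16.96 for Scarna2 at 414 nt and 777 and 760.3 for Gm22486 at 137 nt.

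Levels of different members were therefore compared as CPM per 100 nt of annotated length. This scale corrects neither for loss of short RNAs through fragment length nor for counts missing at an effective length of 0. Length and mean count rose together over 27 members (Spearman rho 0.695), so level and length cannot be told apart in the order below. The Rnu3b entries are left out of this order, because only their sum is a usable level. That sum was not put on this scale. It was 752 and 372 counts in replicates 1 and 2 on copies of 215 or 216 nt. Gm23262 at 168 nt had 752 and 187, so the order below does not place U3. On this scale of CPM per 100 nt, Gm22009 had 293 ± 27.6 (SD, n = 2 for this and the following values), above all others by more than the spread. Scarna10 had 45.3 ± 35.1 and Scarna2 37.1 ± 16.0, which did not differ beyond their spread. Gm23262 (11.2 ± 6.47), Gm25395 (11.1 ± 7.58), Gm22988 (8.50 ± 3.59), Gm23547 (8.29 ± 5.64) and Scarna13 (8.06 ± 4.96) followed, again with overlapping spreads. Snora73b (4.51 ± 5.01), Scarna6 (4.51 ± 3.73) and Snora73a (4.17 ± 4.27) came next. The lowest were Gm25291 (0.319 ± 0.0710) and Snora23 (0.278 ± 0.121). Below the first 3, neighbours in this order did not differ beyond their spread.

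The libraries were compared gene by gene by the exact binomial test, taken two-sided on TMM-scaled counts, with Benjamini-Hochberg adjustment over the 14691 genes whose mean count reached 10. It sets 1 library against the other and knows no error but that of counting, so it says nothing of conditions. In bulk RNA, fewer cells of a type and less RNA per cell cannot be told apart. Of the 35 members, 25 were higher in replicate 1, against 30.2% of all tested genes, and 1 was higher in replicate 2, against 29.7% of all tested genes. The other 9 did not pass. As log2 of replicate 1 over replicate 2, the members had a median ratio of 1.62 and all tested genes one of -0.0045. Since 6 members entered through replicate 1 alone, the 29 members with 10 or more counts in each library were also taken: 21 were higher in replicate 1 and 1 in replicate 2, with a median of 1.51, where all genes so filtered had 30.3% higher in replicate 1.

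Among the members that passed, the largest ratios were those of Gm25835 (41 and 1 counts in replicates 1 and 2, log2 ratio 4.31), Snord22 (3.57, adjusted p = 7.83e-31, exact binomial test with Benjamini-Hochberg adjustment), Gm26448 (3.50), Gm22486 (3.50) and Gm26397 (3.22). Apart from Snord22, these 5 reached 10 counts in replicate 1 alone, so the filter itself favoured a high ratio, and no p is given for them. Snora73b (3.20) and Snora73a (2.80), with 10 or more counts in each library, were close behind. The smallest among those that passed were Gm22988 (-0.72, adjusted p = 5.68e-08, exact), Snord17 (0.87, 1.40e-06), Snord15a (0.96, 0.0130), Gm24119 (1.02, 0.00111) and Scarna2 (1.07, 2.18e-185). Gm22009 did not pass (-0.03, adjusted p = 0.0648, exact), nor did the Rnu3b entries of 215 nt (-0.28, 0.268), Gm26083 (0.34, 0.448), Snord15b (0.69, 0.0930), Snora23 (1.03, 0.210) and Gm25291 (-0.28, 0.726). The Rnu3b sum gave a log2 ratio of 0.43, between the -0.28 of the 215 nt entries and the 2.41 of the summed 216 nt entries. Taken as 1 gene, a setting added after the data were seen, this sum was called higher in replicate 1.

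By class, 4 of 4 Scarna, 3 of 4 Snora, 3 of 4 Snord and 15 of 23 other members were higher in replicate 1. Of all tested genes, 30.2% were. The 15 include the 4 Rnu3b entries of 216 nt, copies of 1 sequence with equal counts. The direction did not follow length in one way. The 7 members of 250 nt or more had a median log2 ratio of 1.67, the 18 of 150 to 249 nt 1.46 and the 10 under 150 nt 2.24. Over 27 members without Rnu3b, length and log2 ratio had a Spearman rho of -0.255, a description over genes of the same 2 libraries. These values include the 6 members that reached 10 counts in replicate 1 alone, for which the filter favoured a high ratio (median 3.36). Of them, Gm26397, Gm25835, Gm22486 and Gm25291 were under 150 nt, and Gm26448 and Snora23 were of 150 to 249 nt. Over 186 genes of other types in the members' length range the median was -0.52, with 43 higher in replicate 1 and 66 in replicate 2. Their kinds differed: 88 pseudogenes had a median of -0.84 (4 higher in replicate 1, 37 in replicate 2), and 31 snRNA genes had -0.52 with calls split at 13 and 14. The 12 genes typed misc_RNA had a median of 0.27 (4 and 1 calls), and 19 protein-coding genes 0.74 (11 and 3). The difference between these sets and the members was not tested.

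**Figure D4:**
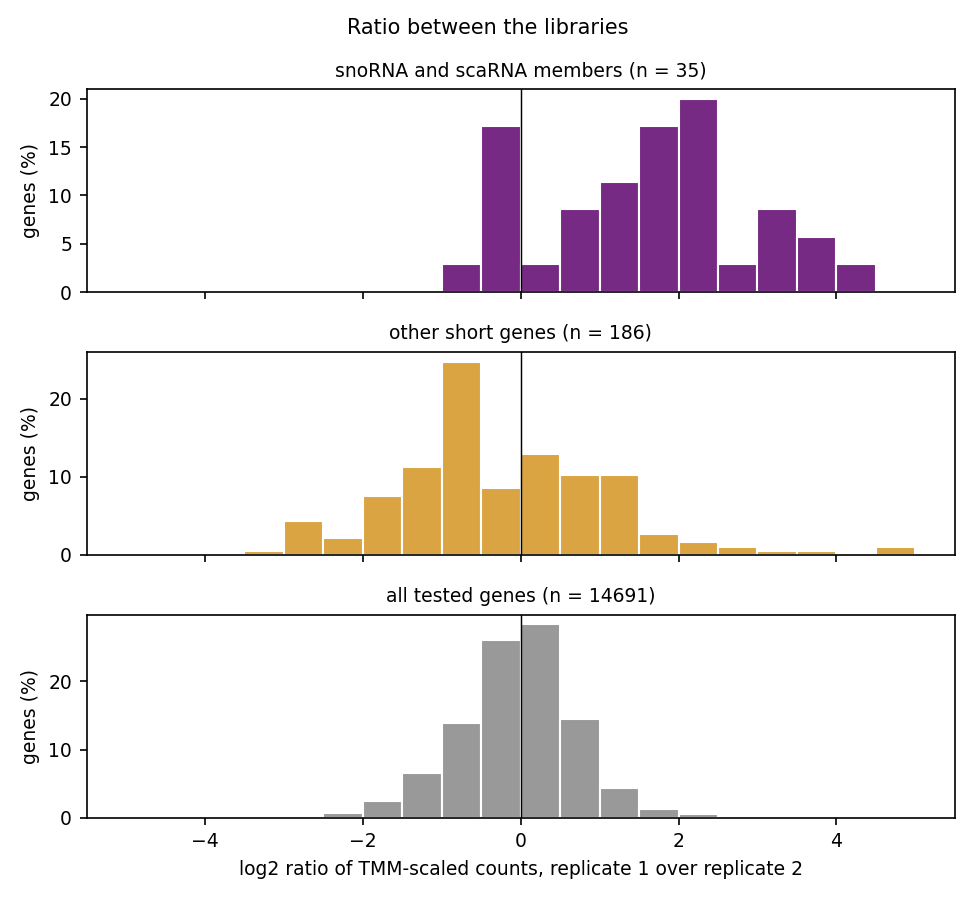
Log2 ratio of TMM-scaled counts, replicate 1 over replicate 2, in bins of 0.5 as percent of genes, for the 35 members (top), 186 genes of other types and the same length range (middle) and 14691 tested genes (bottom); values beyond 5 in size are in the end bins. The members' bars lie mostly right of 0, with a median of 1.62, and those of the other short genes mostly left of it.

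The spread between the replicates was correspondingly large. The biological coefficient of variation, edgeR's estimate of the variation between replicates beyond counting error, was 0.831 for the members and 0.335 for all tested genes. For the 23 members that averaged at least 50 counts it was 0.780. The deposited credibility intervals cover the assignment of reads within 1 library and not this spread: for Gm22009 they reached from 4648 to 4761 TPM in replicate 1 and from 6332 to 6520.5 TPM in replicate 2.

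Of the 35 members, 33 lay inside the span of another gene on the same strand, and Scarna2 and Rnu3a did not. There were 22 host genes, and 17 of them, with 27 members, were protein-coding. These members include the 8 Rnu3b entries at 4 places in Tex14, which itself had only 19 and 9 counts in replicates 1 and 2. Without U3, 25 members had a host. Below the threshold, 664 of 1523 genes of these types (43.6%) had a same-strand host. For 22 members no exon of a host transcript overlapped, and for 11 at least 1 did, in most cases an exon of a transcript typed retained intron. Gm22988 overlapped such a transcript of Eif4a1, to which the transcript tables gave 1015 counts in replicate 1 and 929.6 in replicate 2, more than the gene itself. For Snord15b the overlapping Rps3 transcript held 197 and 183 counts in replicates 1 and 2, and for Snord22 the overlapping Snhg1 transcripts held 265 and 183. The counts of these members depend on how reads were divided with the host.

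Members were not ordered as their hosts were. Over 25 members with hosts, U3 left out, member count and host count had a Spearman rho of -0.0995, a description over genes of the same libraries. The count of the member exceeded that of its whole host gene for 6 members in replicate 1 and 3 in replicate 2. Gm22009 had 26681 and 18155 counts where its host Kpna4, an importin alpha, had 3769 and 3233 in replicates 1 and 2. Scarna10 had 6489.9 and 1129 where Ncapd2, a condensin subunit, had 119 and 43.0. Scarna13 had 905 and 212 where Snhg10 had 7 and 3. Most members had fewer counts than their host: Gm23262, for example, had 752 and 187 counts inside Eif4g2, which had 16569 and 12672.

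The hosts were higher in one library about as often as in the other, as were all tested genes (30.2% in replicate 1 and 29.7% in replicate 2). Of the 21 hosts that were tested, 10 were higher in replicate 1, 9 were higher in replicate 2 and 2 did not pass, with a median log2 ratio of 0.20. The log2 ratio of the member was above that of its host in 22 of 25 cases, by a median of 1.72. Snord22 had a log2 ratio of 3.57 and its host Snhg1 -0.10 (adjusted p = 0.479, exact). Gm22486 had 3.50 and its host Ptcd3 -0.84. The 25 cases include the 6 members that reached 10 counts in replicate 1 alone, Gm22486 among them. For these the filter itself favoured a high ratio, and the comparison was not repeated without them. No test of the difference between member and host was made.

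Hosts known for many snoRNAs were taken next. In the listed host genes (Gas5, Snhg1, Snhg5, Snhg12, Ncl, Nop56, Cwf19l1, Rcc1, Hspa8, Rpl13a and other ribosomal protein and Eef1 genes) 100 snoRNA genes were annotated, with a median length of 83.5 nt, and 6 were members, beside 35 of 1558 (2.25%) over all annotated genes of these types: Snora73a, Snora73b, Snord15a, Snord15b, Snord22 and Gm26448. Gas5, with 10 snoRNA genes of 60 to 84 nt, had none with a count. Snhg1 had 8, of which Snord22, the longest at 126 nt, was the 1 with counts. Rpl13a, whose snoRNAs are known from lipotoxic stress, had 4 of 70 to 90 nt, at 0 counts in the gene tables and 15 and 14 in the second tool in replicates 1 and 2.

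Of the snoRNAs known for ribosomal RNA cleavage, 12 of 19 annotated genes were members: 9 of 10 U3 entries, Snord22 and both Snora73 genes. Over all annotated genes of these types, 35 of 1558 (2.25%) were members. The U3 entries include 8 Rnu3b copies at 4 places, so the 12 are fewer distinct RNAs. These members were 126 nt (Snord22) and 205 to 216 nt long. Snord118, the U8 RNA, at 135 nt had 0 counts in both gene tables and 14 in each library in the second tool. Snord13 (104 nt) and the 4 Snord14 genes (86 to 90 nt) had 0 counts in the gene tables. In the imprinted Prader-Willi region, whose snoRNAs are known from neurons, 19 genes of 67 to 94 nt were annotated under the listed names, and all had 0 counts in both tools. A count of 0 for genes this short does not show that they were absent.

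The second tool, another estimate from the same libraries, gave a much larger set. With its estimated counts 187 genes of these types reached a mean of 10, and 30 of the 35 members were among them, 85.7% of the members and 16.0% of the larger set. The 5 members missing were the 215 nt Rnu3b entries and the 213 nt Rnu3a, all at 0, where the second tool gave every count to the entry that is 1 nt longer. Summed, Rnu3b had 1126 counts in replicate 1 and 683 in replicate 2 in the second tool.

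Of the 157 genes that only the second tool placed above the threshold, 128 had no count in the gene tables. They had a median length of 130 nt and included 16 Snord, 11 Snora and 4 Scarna genes. The highest were Gm22442 (583 and 177 counts in replicates 1 and 2), Gm24500 (216 and 383) and Gm24336 (469 and 124). The highest with Snord or Snora symbols were Snord89 (69 and 27), Snora30 (29 and 60) and Snord104 (52 and 36).

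For the members themselves, the tools were close in replicate 1 and apart in replicate 2. The second tool gave 1.04 times the gene-table counts of the members in replicate 1 and 1.5 times in replicate 2. Over all genes the gene tables held 78.4% of the second tool's counts in replicate 1 and 54.8% in replicate 2. Gm22009 had 26538 counts in the second tool in replicate 1 and 25698 in replicate 2, against 26681 and 18155 in the gene tables. With the second tool's counts 25 members were higher in replicate 1 and 2 (Gm22988 and Gm25291) were higher in replicate 2, of 30 tested. Of the 23681 genes tested with it, 30.9% were higher in replicate 1 and 32.1% in replicate 2. For the members, 26 of the 30 had the call of the gene tables. The median log2 ratio of these 30 members was 1.14, where all genes tested with the second tool had -0.06.

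**Figure D5:**
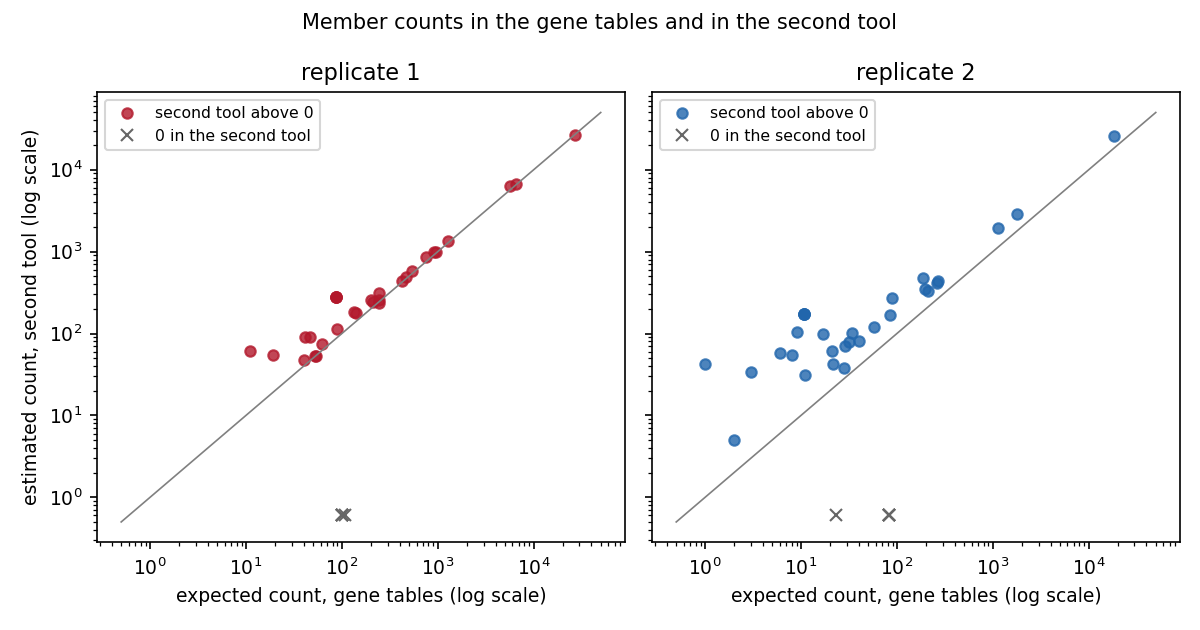
Estimated counts of the second tool against expected counts of the gene tables for the 35 members, both on log axes, in replicate 1 (left) and replicate 2 (right); crosses mark the 5 members at 0 in the second tool, and the line marks equality. In replicate 1 most points lie near the line, and in replicate 2 most lie above it.

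The proteins that bind these RNAs were all detected as nuclear transcripts at low TPM, and none of the core proteins was higher in replicate 1. Of the box C/D proteins, Nop56 had 13.96 ± 5.86 TPM (SD, n = 2 here and below), Nop58 9.12 ± 6.31, Snu13 8.43 ± 5.56 and the methyltransferase Fbl 4.61 ± 0.799. Nop56, Nop58 and Snu13 were higher in replicate 2 (log2 ratios -0.28, -1.06 and -0.55). Of the box H/ACA proteins, Gar1 had 5.98 ± 4.28 TPM, the pseudouridine synthase Dkc1 3.06 ± 2.31, Nhp2 3.0 ± 1.22 and Nop10 1.77 ± 0.665. Dkc1 (-0.92) and Gar1 (-1.01) were higher in replicate 2, and Fbl, Nhp2 and Nop10 did not pass.

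Among 13 genes of snoRNP assembly and Cajal bodies, 3 were higher in replicate 1 and 5 in replicate 2. Tgs1, which methylates the cap of U3, was the most abundant at 27.0 ± 7.35 TPM, and Shq1, a chaperone of Dkc1, the least at 0.845 ± 0.417. Of 8 genes of processing and decay, 2 were higher in replicate 1 and 2 in replicate 2, with the exonuclease Xrn2 highest (22.3 ± 4.96 TPM) and the deadenylase Parn lowest (1.68 ± 0.247). Over the 29 genes of these 4 lists 5 were higher in replicate 1 and 12 in replicate 2, with a median log2 ratio of -0.21. That is a share of calls for replicate 1 below the 30.2% of all tested genes, where the members had 25 of 35. These log2 ratios are on TMM-scaled counts, while TPM also carries the share of Rn7sk, which was larger in replicate 1.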

How the data were processed

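Nuclear total RNA of 1 group was measured in 2 libraries. Per the file headers, the deposited gene tables give expected counts, that is fractional estimates of reads per gene, beside TPM, posterior mean TPM and credibility bounds, under RSEM-style column names. The authors also deposited transcript tables in kallisto style with estimated counts and TPM, here called the second tool. Not given in the sources used here are the aligner, the tool versions and the strand setting. Rows naming no mouse gene, nearly all of it the phiX174 spike-in, held 1.79% of counts in replicate 1 and 0.318% in replicate 2 and were left out.

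Members were genes with a transcript typed snoRNA or scaRNA in the second tool's identifiers and a mean expected count of at least 10. Members and gene lists were chosen with earlier results of these data known. Genes named are, per symbol class, the 8 members with the highest mean count, the 5 largest and 5 smallest ratios among calls, the listed cleavage, imprinted and host-cluster snoRNAs, the 3 genes on each side of the threshold, the snoRNP core proteins and the extremes of the other protein lists. Gm25776, Gm26083, the host genes set beside members, and the genes found by the second tool alone were named after their values were seen.

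Coordinates, hosts and transcript sequences came from GENCODE release M21 (mm10). A host is a same-strand gene whose span holds the member. Log2 ratios used TMM scaling (edgeR 4.0.16, R 4.3.3) with a prior count of 0.5. Expected counts were rounded for the exact binomial test (threshold 0.05), which was tested on simulated data. With 1 group no quasi-likelihood test between groups exists. Other steps ran in Python 3.11.15 with pandas 2.3.3, numpy 2.4.6 and scipy 1.17.1, and plots used matplotlib 3.10.9.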

Additional observations from a re-analysis of the deposited data

How the results depend on the processing

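Of 40 alternatives tried on values of the members as a set, 10 moved a value and none reversed one. A count, length or coefficient of variation was taken as moved beyond 1.5 times, a share or TPM beyond 1 SD of the replicates, and a median log2 ratio beyond 0.1. The number of members was 35 as reported and 187 with the second tool, and ranged from 29 to 39 with 1 library left out. The share of gene counts was 0.151% as reported, 0.123% with the second tool and 0.0501% without Gm22009, an alternative chosen after seeing the data, and ranged from 0.136 to 0.165% with 1 library left out. The median TPM was 153 as reported and 49.0 with the second tool (122 to 183 with 1 library left out). The median log2 ratio was 1.62 as reported, 1.46 with library size, 1.14 with the second tool, 1.10 on log2(TPM + 1) and 1.10 on log2(TPM + 0.1). On the same scales the median over all tested genes was -0.17 with library size, -0.06 with the second tool, and -0.43 and -0.61 on the TPM scales. Members higher in replicate 2 numbered 1 as reported and 2 both with library size, where Gm22009 was added, and with the second tool. Of all tested genes, 29.7% were higher in replicate 2 as reported, 39.2% with library size and 32.1% with the second tool. In the second tool Gm22009 instead had more counts in replicate 1 (26538 against 25698), at a smaller TMM-scaled library size (31554290 against 35541024). The direction of Gm22009 thus depended on the setting. The median length ranged from 205 to 215 nt with 1 library left out. With the 8 Rnu3b entries counted as 1 gene, also added after seeing the data, 22 of 28 members were higher in replicate 1, against 30.2% of all tested genes. Depth, counts of 0 at short lengths and reads shared with hosts or copies limit these values, and the causes were not tested. No paired analysis was possible because there is 1 group.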
